A study of Mus musculus with 3 samples.

Results

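The 9 genes described here code for structural and surface proteins of central nervous system myelin: Mbp, Mobp, Mog, Mag, Cnp, Mal, Cldn11, Opalin and Ermn. They were chosen by symbol, and all 9 were found among the 28001 features of a single-cell data set from the mouse nucleus accumbens. The data came from 3 samples of 1 group: Thy1::ChR2 mice, in which the Thy1 promoter drives the light-gated channel ChR2 in subsets of projection neurons, labelled with FLiCRE (a recorder that turns calcium rises during light into a reporter transcript) while ChR2 was stimulated with light in the nucleus accumbens (NAc), and dissected as a coronal slice labelled 400 um. All 3 samples carried the transgene, the label and the stimulation, and no unstimulated or unlabelled group was among them. The comparisons are therefore between cell types that share a library. The age, the sex and the number of animals behind each sample are not given in the sources used here, so the p-values measure the spread between 3 libraries, which may in part be technical.

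Myelin is the stack of membrane that oligodendrocytes wrap around axons. Oligodendrocytes arise from dividing precursors that do not yet make myelin and that switch on the myelin genes when they mature, under transcription factors such as Sox10 and Myrf. Mbp (myelin basic protein) glues the cytoplasmic faces of the membrane together, and its mRNA is known to be carried into the processes and made into protein at the myelin sheath. Mobp is another small basic protein whose mRNA is also found in the processes. Mog and Mag are surface proteins of the immunoglobulin family, on the outermost face and on the layer next to the axon. Cnp (2′,3′-cyclic nucleotide phosphodiesterase) keeps cytoplasmic channels open within myelin. Mal is a membrane protein of lipid-rich domains, Cldn11 forms the tight junctions between the layers, Opalin is a membrane glycoprotein of oligodendrocytes, and Ermn (ermin) is a cytoskeletal protein of mature cells.

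The genes lie on different chromosomes of the mm10 build, except that Mal and Ermn are both on chromosome 2. In the GENCODE annotation Mobp spans chr9:120149707-120181484 and Cldn11 chr3:31149920-31164324, both on the plus strand. Mag spans chr7:30899176-30914873, Mog chr17:37010743-37023398, Opalin chr19:41061710-41077113, Mal chr2:127633226-127656695 and Ermn chr2:58045113-58052864, all on the minus strand. Cnp spans chr11:100574904-100591729 on the plus strand and overlaps Dnajc7 on the other strand, and Ermn overlaps Galnt5 in the same way. Whether the counting used the strand is not given in the sources used here, so reads of these 2 pairs might be mixed.

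Promoter sequences from RefSeq (GRCm38.p6) were matched for 8 of the 9 genes, and 200 bases upstream of each start, from -250 to -51, were searched on both strands for 3 short motifs. The letters ACAAAG (or CTTTGT), the core bound by SOX factors, occurred in 4 of the 8 genes (Mobp, Mag, Cnp and Opalin) and in 13.6% of all 32851 promoter windows of that length. The letters CTGGCAC (or GTGCCAG), a core of the motif of Myrf, occurred in Mag and Cnp and in 3.35% of all windows. The E-box CAGCTG occurred in 0 of the 8 and in 10.3% of all windows. A gene was counted if any of its start sites had a match, while the shares over all windows count single windows. A window for each of the 4 genes with a SOX core is shown because they differ in how often these letters occur, with every match in capitals. Mag has 3 start sites in the table, of which the first is shown. The window of the second overlaps it and holds 1 SOX core and no Myrf core, and that of the third holds neither. Sequences run 5′ to 3′ on the strand of the gene, and the coordinates are chr9:120149492-120149691 (plus) for Mobp, chr7:30914914-30915113 (minus) for Mag, chr11:100574689-100574888 (plus) for Cnp and chr19:41077164-41077363 (minus) for Opalin.
Mobp: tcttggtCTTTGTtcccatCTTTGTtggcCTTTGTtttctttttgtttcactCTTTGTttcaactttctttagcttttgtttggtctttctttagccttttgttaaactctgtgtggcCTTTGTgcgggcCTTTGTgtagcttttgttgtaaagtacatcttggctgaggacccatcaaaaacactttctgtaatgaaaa
Mag: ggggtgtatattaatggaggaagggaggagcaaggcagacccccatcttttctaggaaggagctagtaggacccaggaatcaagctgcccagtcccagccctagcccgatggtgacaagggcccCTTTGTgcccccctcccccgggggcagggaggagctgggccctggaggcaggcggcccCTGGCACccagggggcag
Cnp: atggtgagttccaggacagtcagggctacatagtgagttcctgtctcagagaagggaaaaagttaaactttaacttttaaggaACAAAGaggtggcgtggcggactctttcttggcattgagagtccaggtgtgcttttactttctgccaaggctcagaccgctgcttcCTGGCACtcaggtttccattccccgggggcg
Opalin: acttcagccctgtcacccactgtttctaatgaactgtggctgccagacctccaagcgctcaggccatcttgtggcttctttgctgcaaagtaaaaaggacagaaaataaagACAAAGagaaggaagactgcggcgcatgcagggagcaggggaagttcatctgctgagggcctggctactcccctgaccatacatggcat
The Mobp window held 6 SOX cores, and it was the only 1 of the 32851 windows with 6 or more. That cutoff was taken from the Mobp window itself. Windows with 3 or more SOX cores were 0.0974% of all. The Mag and Cnp windows each held 1 SOX core and 1 Myrf core, and the Opalin window held 1 SOX core. A match describes the letters only, and binding was not measured.

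Cells were assigned to classes by marker genes that include none of the 9. A cell entered a class when at least 2 of the 8 markers of that class had a UMI (a tag that marks 1 captured RNA molecule), and at least 2 more than of any other class. Of 9923 cells kept, 8816 were assigned: 394, 537 and 302 oligodendrocytes in libraries 1 to 3, 14, 50 and 31 oligodendrocyte precursors, 3 committed precursors in library 1, and 1536, 4586 and 1363 cells outside the lineage (neurons, astrocytes, immune and vascular cells). The libraries held 2788685, 14563414 and 6267259 UMIs, with medians of 985.5, 2084 and 2674 per cell, and shared 13, 7 and 22 barcodes in pairs. Library numbers are barcode suffixes, used only as names. Levels are given in CPM, the usual scaling of UMI counts by the total of the class, and since the kit reads 3′ ends they are not divided by transcript length and do not separate the transcripts of 1 gene. The 8 oligodendrocyte markers summed to 14391, 14113 and 16594 CPM in the cells named oligodendrocytes and to between 67.3 and 173 CPM in neurons. The same markers assigned the cells, so these sums do not test the naming.

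All 9 genes were higher in oligodendrocytes than in precursors and than outside the lineage, in each of the 3 libraries. Together they reached 37587, 29542 and 34237 CPM in oligodendrocytes, 2721, 887 and 664 CPM in precursors, and 1012, 797 and 1433 CPM outside the lineage. The 3 oligodendrocyte values lay far above all others, while the ranges of precursors and outside cells overlapped. In the quasi-likelihood test of edgeR, fitted over all 11747 genes that passed the filter on low counts, 9 of 9 passed an adjusted p of 0.05 against precursors, where 11.8% of all genes were called higher, and 9 of 9 against outside cells, where 25.7% were called higher. The calls over all genes depended on scaling: 1387 were higher and 841 lower against precursors with TMM scaling, and 571 and 1686 without it. Against outside cells they were 3017 and 3790 with TMM and 1513 and 5715 without. The median log2 difference of the 9 genes was 6.94 against precursors and 7.05 against outside cells, beside medians over all genes of 0.42 and -0.11.

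**Figure D1:**
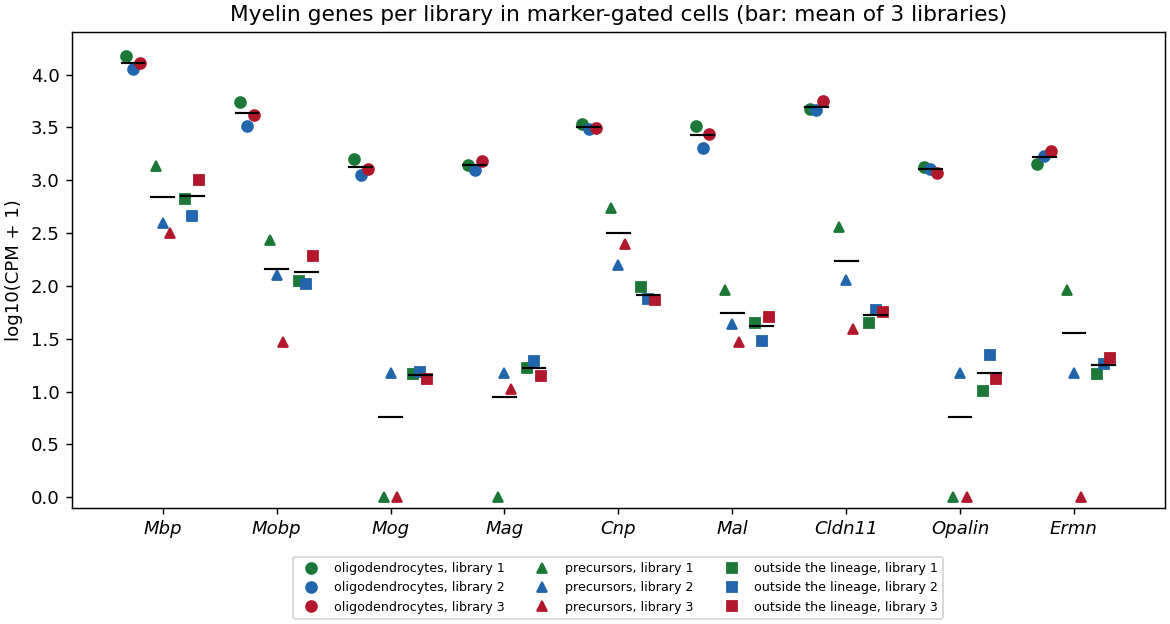
Level of each myelin gene on a log10(CPM + 1) scale in oligodendrocytes (circles), precursors (triangles) and all assigned cells outside the lineage (squares), 1 point per library, with a bar at the mean of 3 libraries. Every oligodendrocyte point lies above every other point of its gene, and 4 genes are at 0 in precursors of at least 1 library.

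Among the genes for proteins of compact myelin, Mbp (chr18:82475146-82585637, plus strand) stood at 14919, 11243 and 12759 CPM in oligodendrocytes (12974 ± 1847, SD, n = 3 libraries). It stood at 1360, 394 and 313 CPM in precursors and at 667, 462 and 1006 CPM outside the lineage. The oligodendrocyte values were separate from the rest, with a log2 difference of 5.72 (SE 0.47) from precursors (edgeR adjusted p = 4.64e-15) and of 4.82 (SE 0.41) from outside cells (edgeR adjusted p = 2.78e-15). Of the 9 genes, Mbp had the smallest difference from outside cells.

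Mobp was at 5542, 3285 and 4156 CPM in oligodendrocytes, 272, 127 and 28.5 CPM in precursors and 109, 103 and 192 CPM outside. Its log2 difference was 6.50 (SE 0.51) from precursors and 5.60 (SE 0.38) from outside cells (edgeR adjusted p = 7.04e-16 and 3.95e-19). The precursor values spread around the outside values.

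Cldn11 was at 4669, 4607 and 5620 CPM in oligodendrocytes, 363, 113 and 38.0 CPM in precursors and 43.7, 58.1 and 55.3 CPM outside. Its log2 difference was 6.68 (SE 0.50) from precursors and 7.16 (SE 0.41) from outside cells (edgeR adjusted p = 2.23e-16 and 1.73e-22). Mal was at 3270, 2031 and 2717 CPM in oligodendrocytes, 90.7, 42.2 and 28.5 CPM in precursors and 43.7, 29.1 and 49.4 CPM outside. Its log2 difference was 6.94 (SE 0.52) from precursors and 6.63 (SE 0.36) from outside cells (edgeR adjusted p = 1.14e-16 and 1.97e-23). For both genes the lowest oligodendrocyte value was far above the highest of any precursor or outside sum.

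Cnp had the smallest difference from precursors. It was at 3428, 3041 and 3128 CPM in oligodendrocytes, 544, 155 and 247 CPM in precursors and 97.5, 73.9 and 72.6 CPM outside. The log2 difference was 4.60 (SE 0.41) from precursors and 5.91 (SE 0.36) from outside cells (edgeR adjusted p = 6.20e-14 and 5.05e-21). In all 3 libraries the precursor level lay between that of oligodendrocytes and that of all outside cells together. Astrocytes alone stood at 230, 225 and 251 CPM, above precursors in libraries 2 and 3.

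The surface proteins and ermin were close to absent in precursors. Mog was at 1591, 1111 and 1282 CPM in oligodendrocytes, Mag at 1403, 1247 and 1505, Opalin at 1344, 1284 and 1171, and Ermn at 1421, 1694 and 1899. In the 95 precursors, with 187422 UMIs over the 3 libraries, there was 1 UMI of Mog, 1 of Opalin, 2 of Mag and 2 of Ermn, so fitted fold changes rest on the prior count of the fit. The ratio of the pooled levels in oligodendrocytes to those in precursors was 235 for Mog (exact 95% interval 42.1 to 9270), 233 for Opalin (41.8 to 9216), 129 for Mag (35.7 to 1067) and 163 for Ermn (45.2 to 1348), with intervals for counting error only. Outside the lineage these 4 genes stood at 9.04 to 21.2 CPM, and their log2 differences from oligodendrocytes were 7.05 to 7.24 (edgeR adjusted p from 5.60e-25 to 1.34e-24).

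Most oligodendrocytes carried most of the 9 genes. Shares of cells were also taken after thinning to 1000 UMIs, which leaves out shallower cells: 216 of 394, 42 of 537 and 11 of 302 oligodendrocytes, and 702 of 1536, 615 of 4586 and 186 of 1363 outside cells. Among the deeper cells so thinned, Mbp had a UMI in 99.5% ± 0.519 of oligodendrocytes (99.6% ± 0.733 in all oligodendrocytes before thinning), Cldn11 in 95.8% ± 1.95 (97.8% ± 0.861), Mog in 68.3% ± 3.68 (85.2% ± 9.70) and Opalin in 57.5% ± 5.75 (72.4% ± 8.03), as mean and SD over 3 libraries. The median oligodendrocyte had 8, 9 and 9 of the 9 genes in libraries 1 to 3, and 103 of 394, 287 of 537 and 215 of 302 had all of them. Per cell, the genes took a median of 3.47%, 2.84% and 3.09% of UMIs. Outside the lineage 1 of 7485 cells had all 9, and the thinned shares there were 31.7% ± 1.15 for Mbp (49.5% ± 12.1 before thinning), 9.17% ± 2.49 for Mobp (18.1% ± 7.63) and 1.38% ± 0.276 for Mog (2.92% ± 1.46).

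Oligodendrocytes with a UMI of Klk6, a protease gene of a mature subset, had 5 of the 9 genes lower in all 3 libraries (Opalin, Mal, Mbp, Mog and Cnp) and 3 higher (Cldn11, Ermn and Mag), and Mobp went either way. These are levels with no test, and some gaps were small, such as 1248 against 1245 CPM of Mag in library 2. How many of all genes went 1 way in 3 libraries, or had values that did not overlap, was not counted. The counts of 5 and 3 therefore do not set the 9 genes apart from other genes. Opalin was at 878, 1016 and 1089 CPM in cells with a Klk6 UMI and at 1850, 1702 and 1542 CPM in the others of libraries 1 to 3, and Cldn11 was at 5130, 5316 and 5877 against 4168, 3499 and 4456 CPM. Mal was at 2629, 1806 and 2537 against 3968, 2383 and 3532 CPM. For Opalin and Cldn11 the values did not overlap, and the sum of the 9 genes was 36113, 29819 and 33449 against 39189, 29109 and 37806 CPM. Cells with a Klk6 UMI also had more UMIs, with medians of 1094, 2548 and 4299 against 863, 1837 and 3357, and the part of depth in the difference was not tested.

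In precursors 1 of the 9 genes was higher than outside the lineage, where 5.18% of all genes were called higher (608 higher and 1433 lower with TMM scaling, 869 and 1079 without). That gene was Cnp, with a log2 difference of 1.30 (SE 0.45, edgeR adjusted p = 0.0329) and a higher level in precursors than in the outside sum in all 3 libraries. Astrocytes, which are part of that sum, stood above precursors in libraries 2 and 3. The call was lost with a stricter gate (log2 difference 1.19, edgeR adjusted p = 0.172), without library 2 (1.60, adjusted p = 0.175) and without library 3 (1.08, adjusted p = 0.371), with the difference still positive. Against neurons in place of all outside cells, it was 2.23 (SE 0.44, edgeR adjusted p = 1.39e-05). Mbp differed by -0.89 (SE 0.45, edgeR adjusted p = 0.166), and 6 other genes had values between -1.68 and -0.30 with none called. Cldn11 had 0.49 (SE 0.63). The 14 precursors of library 1 had the highest sum of the 9 genes, 2721 CPM, from a total of only 15 UMIs of Mbp, 6 of Cnp, 4 of Cldn11, 3 of Mobp, 1 of Mal and 1 of Ermn. Of those 15 UMIs of Mbp, 13 were in a single cell, and most of the 14 cells had none. The 3 committed precursors, a stage between precursors and oligodendrocytes, came from library 1 only and had 56 UMIs of the 9 genes, at 13642 CPM (exact 95% interval 10305 to 17715, for counting error only and not for the spread between cells or libraries).

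Other genes of the myelin programme, in 5 lists by role, were compared in the same way. Higher in precursors than outside the lineage were 2 of 5 membrane genes, 1 of 6 lipid synthesis genes and 2 of 6 genes of axon contact. Of 7 cytoskeletal genes 0 were higher and 1 was lower. Over all 11747 genes 5.18% were called higher in that comparison, with 608 higher and 1433 lower. Among membrane proteins 4 of 5 were higher in oligodendrocytes than in precursors (list median log2 difference 1.70). Tspan2, a tetraspanin, differed by 5.42 (SE 0.48, edgeR adjusted p = 7.20e-14) and Plekhb1, a membrane-bound protein with a pleckstrin homology domain, by 2.97 (SE 0.41, edgeR adjusted p = 3.77e-08). Cd9, another tetraspanin, differed by 0.33 (edgeR adjusted p = 0.52) and was higher in precursors than outside by 3.25 (SE 0.33, edgeR adjusted p = 2.53e-11).

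Of the lipid synthesis genes 5 of 6 were higher (median 2.75), led by the fatty acid hydroxylase Fa2h and the elongase Elovl7, with 3 and 2 UMIs in precursors and pooled ratios of 23.2 (exact 95% interval 7.90 to 112) and 10.6 (2.91 to 87.8). Of genes of axon contact and glial junctions 4 of 6 were higher (median 2.02). The connexin Gjb1 had 3 UMIs in precursors and a pooled ratio of 32.1 (exact 95% interval 11.0 to 156). The contact protein Cntn2 had 2 UMIs, both in library 1, and a pooled ratio of 14.1 (3.89 to 117). Of cytoskeletal genes 7 of 7 were higher (median 4.27), led by Sept4, a septin (6.42, SE 0.51), and the tubulin Tubb4a (4.93, SE 0.43).

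The transcription factors went otherwise. Of 10, 3 were higher and 2 lower in oligodendrocytes than in precursors (median 0.06, where 7.16% of all genes were called lower), while 7 of 10 were higher in precursors than outside the lineage. Myrf, which drives myelin genes, was higher in oligodendrocytes by 3.51 (SE 0.58, edgeR adjusted p = 3.21e-06). It had 4 UMIs in precursors and a pooled ratio of 6.58 (exact 95% interval 2.55 to 24.3). In library 1 its level was 194 CPM in oligodendrocytes and 181 CPM in precursors, the latter from 2 UMIs. Nkx6-2 had 0 UMIs in precursors and was at least 52.1-fold higher, against a floor of 3 UMIs over the group, which left the list median as given. Olig1 and Olig2, factors of the whole lineage, were lower in oligodendrocytes by -1.17 (SE 0.30) and -1.41 (SE 0.31), with edgeR adjusted p = 0.00256 and 0.00035. Sox10, needed throughout the lineage, differed by 0.32 (SE 0.31, edgeR adjusted p = 0.542) and was higher in precursors than outside by 6.46 (SE 0.39, edgeR adjusted p = 2.97e-20).

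Across the 12 classes with enough cells in every library, the genes whose log2(CPM + 10) pattern was most like the mean of the 9 were Gjb1 (Pearson r = 0.985), A930017K11Rik (0.983), A330015K06Rik (0.982), Ptgds (0.98) and 4933413G19Rik (0.98), of 11641 genes compared. Their mean levels in oligodendrocytes were 505 CPM for Gjb1 and 5062 CPM for Ptgds. They were only 8.66 CPM for A930017K11Rik, 22.0 for A330015K06Rik and 17.1 for 4933413G19Rik, close to the 10 CPM added before the logarithm. The 12 points share the same 3 libraries, and with 1 class far above the rest these values describe mainly that class. Each member against the mean of the other 8 reached 0.848 for Mal, 0.884 for Mbp and 0.891 for Cnp, and 0.948 to 0.964 for the other 6.

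The level outside the lineage was used to measure free RNA, since neurons, vascular and immune cells are not known as sources of most of these transcripts. Because a class needed a lead of 2 markers, cells with oligodendrocyte markers beside those of another class could go unassigned. Unassigned cells, at 5954, 3253 and 20641 CPM of the 9 genes in libraries 1 to 3, are left out of this level. How far that changes it was not tested. The 9 genes together stood outside at 2.69%, 2.70% and 4.18% of their oligodendrocyte level (3.19% ± 0.859), and in neurons at 2.06%, 2.49% and 1.85% (2.14% ± 0.323). Gene by gene, the outside level was not 1 fixed share of the oligodendrocyte level. It was 1.001% ± 0.0432 for Ermn, 1.02% ± 0.224 for Mog, 1.06% ± 0.175 for Cldn11, 1.12% ± 0.497 for Opalin and 1.16% ± 0.307 for Mag. It was 1.53% ± 0.254 for Mal, 2.53% ± 0.275 for Cnp, 3.24% ± 1.33 for Mobp and 5.49% ± 2.08 for Mbp, whose values were 4.47%, 4.11% and 7.89%. In neurons alone Mbp was at 3.72%, 3.92% and 3.15%, Mobp at 1.499%, 2.97% and 2.21% and Cldn11 at 0.856%, 1.22% and 0.816%. Cnp was at 1.26%, 1.76% and 1.17% in neurons and Mal at 0.611%, 0.817% and 0.457%. The outside sums also include the Cnp of astrocytes and the Mal of endothelial cells, described below.

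**Figure D2:**
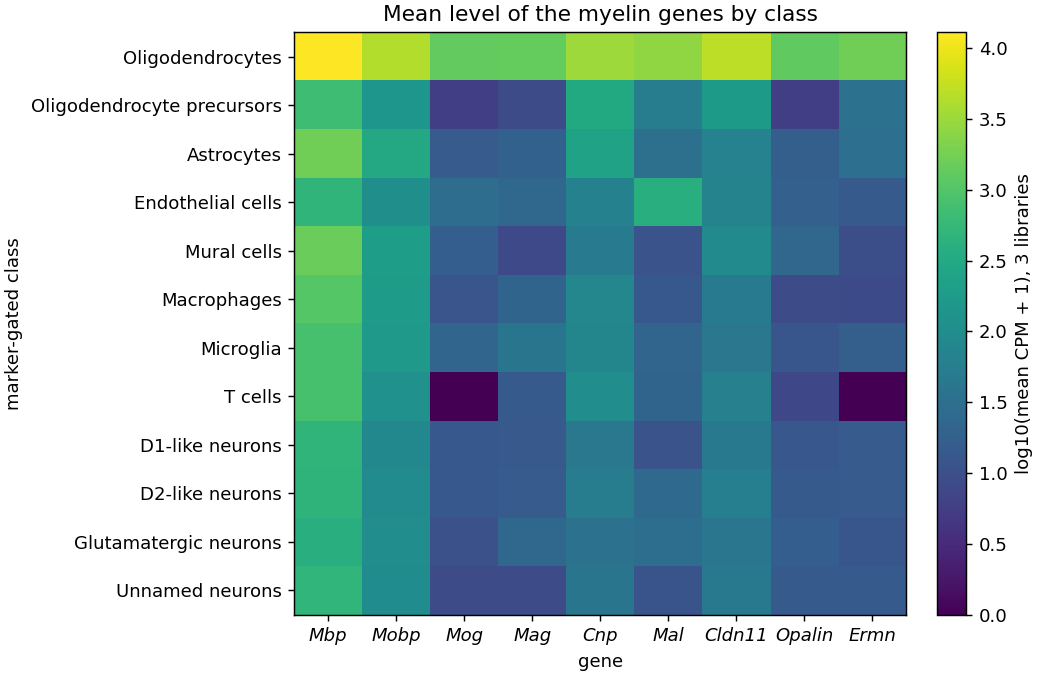
Mean level over 3 libraries of each myelin gene (columns) in each class with at least 10 cells in every library (rows), on a colour scale of log10(mean CPM + 1). The oligodendrocyte row is the highest in every column, and outside the lineage Cnp in astrocytes and Mal in endothelial cells stand above their columns.

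The make-up of the myelin UMIs therefore differed between oligodendrocytes and the other cells. Mbp made up 39.7%, 38.1% and 37.3% of the 9 genes' UMIs in oligodendrocytes and 65.9%, 57.9% and 70.2% outside the lineage. The difference was 26.3 ± 6.54 percentage points (SD, n = 3 libraries), with the outside share higher in 3 of 3 libraries. The exact two-sided sign-flip test gave p = 0.25 (also 0.25 as the smallest that 3 libraries allow). In neurons the Mbp share was 71.5%, 59.9% and 63.2%. The exact 95% binomial intervals of the single libraries did not overlap between oligodendrocytes and outside cells: they ran from 36.8% to 40.4% in the first and from 57.0% to 71.3% in the second. They cover counting error only and treat UMIs as independent, while much of the outside Mbp sat in few cells, as described below. Mobp kept about the same share in both (12.7% ± 1.87 and 12.4% ± 1.41), Cnp took 9.52% ± 0.672 and 7.99% ± 2.54, and the other 6 genes took smaller shares outside in 3 of 3 libraries. Cldn11 had the largest gap of these, 14.8% ± 2.11 in oligodendrocytes and 5.15% ± 1.86 outside. Since the shares add up to the whole, a higher Mbp share lowers the rest, and the smaller shares are not separate results.

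**Figure D3:**
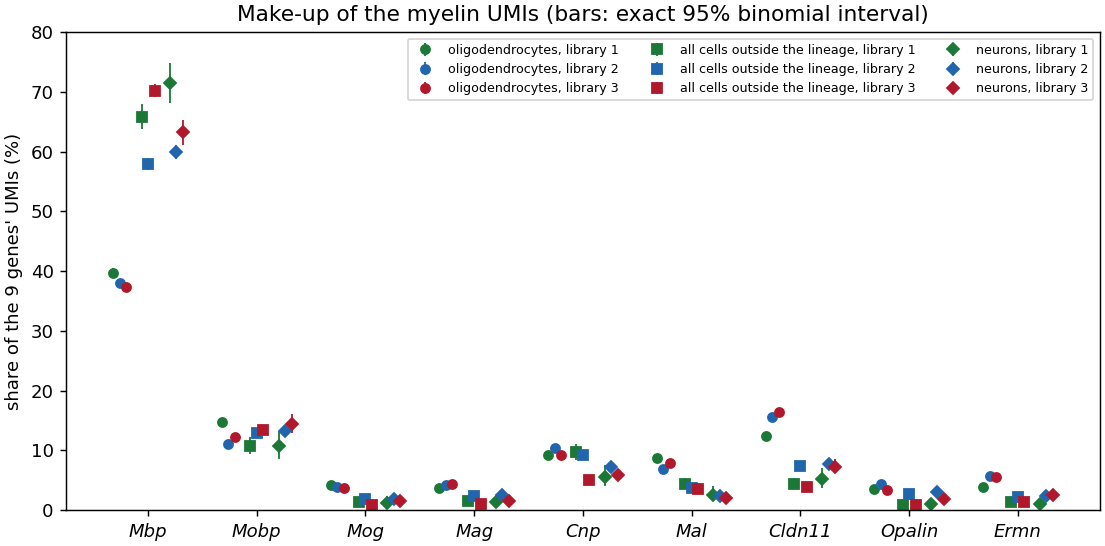
Share of each gene in the summed UMIs of the 9 myelin genes, in percent, for oligodendrocytes (circles), all assigned cells outside the lineage (squares) and neurons (diamonds), 1 point per library with exact 95% binomial intervals for counting error. The Mbp points of outside cells and neurons lie between 57.9% and 71.5%, above the oligodendrocyte points between 37.3% and 39.7%.

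A small number of cells held much of the Mbp found outside the lineage. With a cutoff of 10 Mbp UMIs, set after the data were seen, 16, 35 and 63 cells of libraries 1 to 3 (114 of 7485) held 34.3%, 13.4% and 68.5% of all outside Mbp UMIs. They carried little of the other genes: 10.1, 15.5 and 13.5 UMIs of Mbp per UMI of the 7 genes other than Mbp and Mobp. Oligodendrocytes with as many Mbp UMIs had 1.27, 0.785 and 0.756, and outside cells under the cutoff had 2.05, 1.75 and 1.73. The cutoff and the marker gate chose both sets of cells, so these ratios and the counts that follow are partly set by that choice. Of the 114 cells, 34 had 0 UMIs of those 7 genes, compared with 0 of 928 such oligodendrocytes, and 37 had no UMI of any oligodendrocyte marker. Their ratio of Mbp to Mobp was 7.58, 6.49 and 5.69, beside 3.29, 3.47 and 3.10 in oligodendrocytes. The remaining outside cells, with fewer Mbp UMIs by the cutoff, had 5.55, 4.27 and 4.46, also above the oligodendrocytes of each library. The cell with the most, an astrocyte of library 3, had 182 UMIs of Mbp, 27 of Mobp and 1 of Cnp among 3858 UMIs, and 0 of the other 6 genes. It had UMIs of 2 oligodendrocyte markers. Not every such cell lacked the other genes. An endothelial cell of library 1 had 54 UMIs of Mbp, 4 of Mog, 4 of Mal and 3 of Cnp, and UMIs of 4 oligodendrocyte markers.

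**Figure D4:**
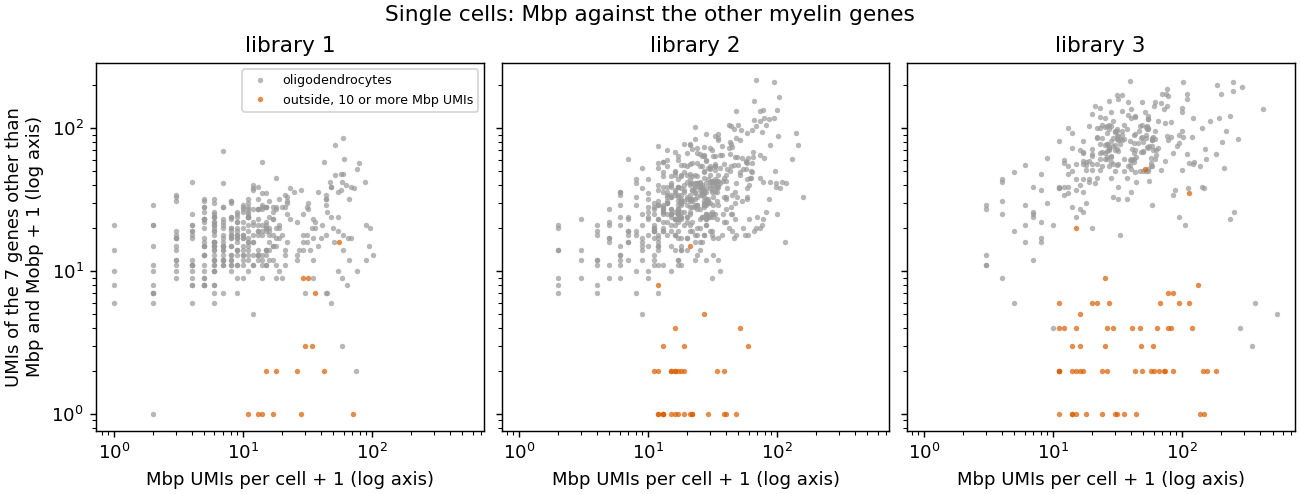
Each point is a cell: UMIs of Mbp plus 1 against summed UMIs of the 7 genes other than Mbp and Mobp plus 1, both on log axes, for all oligodendrocytes (grey) and for outside cells with 10 or more Mbp UMIs (orange), by library. Most orange points lie below the grey cloud, 34 of the 114 of them at 0 UMIs of the 7 genes.

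By class, 57 of the 114 cells were astrocytes and 44 were neurons. They were 47 of the 188 astrocytes of library 3, but 1.34% and 1.46% of those of libraries 1 and 2, and 0.617%, 0.730% and 1.57% of neurons. Without these cells the outside Mbp level was 445, 405 and 340 CPM, and the 9 genes together stood at 2.08% ± 0.355 of the oligodendrocyte level. The Mbp share outside was then 18.6 ± 1.47 percentage points above that in oligodendrocytes.

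Among the 10 classes outside the lineage, few members stood apart in 1 class. In a fit of these classes, each against the mean of the others, 6 members passed the filter on low counts (Mbp, Mobp, Mag, Cnp, Mal and Cldn11), and 4 of 60 pairs of gene and class were called higher, where 24% of all pairs of tested genes and classes were. Those 4 were Cnp, Mobp and Mbp in astrocytes and Mal in endothelial cells. In astrocytes 30.3% of all genes were called higher (2659 higher and 1028 lower, or 1836 and 1991 without TMM), and in endothelial cells 25.5% (2244 and 838, or 1858 and 1148 without TMM).

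Cnp in astrocytes was at 230, 225 and 251 CPM, where neurons of the same libraries had 43.1, 53.5 and 36.6 CPM, and it was the highest of the 10 classes in each library. The log2 difference from the other outside classes was 2.52 (SE 0.20, edgeR adjusted p = 2.02e-17), and it stayed called in all 14 alternatives, from 2.10 to 2.84. In astrocytes with no UMI of the other 8 members, Cnp had a UMI in 39 of 135, 29 of 107 and 10 of 30 cells (28.9%, 27.1% and 33.3%). Among neurons chosen in the same way the shares were 2.95%, 9.59% and 6.72%, with median depths of 945, 1707 and 1899 UMIs against 1278, 1503 and 1362 in the astrocytes. After thinning to 1000 UMIs, Cnp was found in 22.1% ± 1.01 of astrocytes (42.2% ± 10.8 of all astrocytes before thinning) and 4.51% ± 0.479 of neurons (10.2% ± 4.89). This left out 78 of 299, 55 of 411 and 19 of 188 astrocytes and 377 of 810, 255 of 3427 and 89 of 893 neurons with fewer UMIs. The oligodendrocyte markers summed to 312, 260 and 435 CPM in astrocytes and 67.3, 173 and 120 CPM in neurons, all 8 with a UMI in both. With outside cells that had a UMI of any of these markers left out, the log2 difference of Cnp in astrocytes was 2.54 (SE 0.23, edgeR adjusted p = 2.42e-17). The part of such cells in the CPM levels was not tested.

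Mal in endothelial cells was at 282, 346 and 491 CPM, where neurons had 19.98, 16.6 and 12.4 CPM, and again it was the highest of the 10 classes in each library. The log2 difference was 4.50 (SE 0.24, edgeR adjusted p = 1.62e-25), called in all 14 alternatives with values from 4.10 to 5.55. Endothelial cells without a UMI of the other 8 members had a Mal UMI in 24 of 108, 23 of 77 and 23 of 40 cells (22.2%, 29.9% and 57.5%), compared with 1.15%, 2.58% and 2.48% of neurons chosen likewise, at median depths of 822, 950 and 1983 against 953, 1668 and 1858 UMIs. In mural cells, the neighbours of endothelial cells in the vessel wall, Mal had 0, 5 and 1 UMIs.

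**Figure D5:**
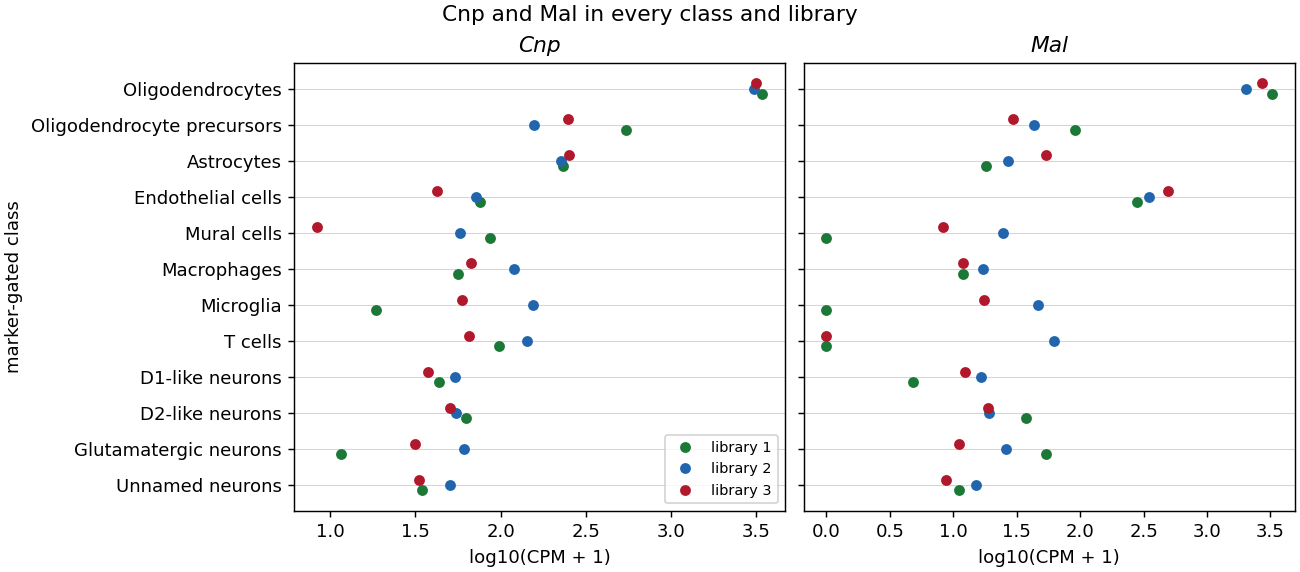
Level of Cnp (left) and Mal (right) in each class on a log10(CPM + 1) scale, 1 point per library. Outside the lineage the 3 points of astrocytes are highest for Cnp (225 to 251 CPM) and those of endothelial cells for Mal (282 to 491 CPM).

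The calls of Mbp and Mobp in astrocytes rested on library 3. Astrocyte Mbp was at 582, 603 and 3792 CPM and Mobp at 97.1, 133 and 670 CPM, with log2 differences of 1.70 (SE 0.51, edgeR adjusted p = 0.0109) and 1.65 (SE 0.43, edgeR adjusted p = 0.00349). Without library 3 they were 0.38 and 0.41 (edgeR adjusted p = 0.455 and 0.504). The Mbp call was also lost without library 2 (log2 difference 2.02, SE 0.74, edgeR adjusted p = 0.0646) and without TMM scaling (1.29, SE 0.54, edgeR adjusted p = 0.0639), where the difference itself remained above 1. With the cells of 10 or more Mbp UMIs left out, astrocyte Mbp was at 436, 499 and 637 CPM and its log2 difference was 0.83, given as a description with no test because those cells were chosen by their Mbp count.

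A single library also stood out in other classes. Mbp in mural cells of library 1, 45 cells with 34968 UMIs, was at 3775 CPM, and at 533 and 227 CPM in the others; without the cells of 10 or more Mbp UMIs it was 820 CPM in library 1. Microglia had 353, 635 and 1516 CPM of Mbp and macrophages 784, 489 and 1909. In library 3 a single microglia held 135 Mbp UMIs and a single macrophage 143, and without the cells of 10 or more Mbp UMIs the values were 353, 607 and 402 CPM in microglia and 390, 449 and 346 CPM in macrophages. Neuron classes varied less: D1-like neurons had 619, 465 and 372 CPM, D2-like neurons 520, 421 and 454, glutamatergic neurons 510, 391 and 251 and unnamed neurons 573, 434 and 541. D1-like neurons were the highest of these in libraries 1 and 2 and unnamed neurons in library 3, glutamatergic neurons were the lowest in all 3, and Mbp was called in none of the 4 classes.

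Some members were called lower in neuron classes than in the mean of the other outside classes. These were Mal (-1.41) and Cnp (-0.90) in D1-like neurons, Cnp (-1.08) in glutamatergic neurons, and Mal (-1.59), Cnp (-1.11) and Mag (-1.07) in unnamed neurons, as log2 differences with edgeR adjusted p from 0.000524 to 0.0249. Over all genes 14.5%, 14.2% and 13.2% were called lower in these 3 classes. The mean they are set against contains the astrocytes and endothelial cells described above.

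Mog, Opalin and Ermn did not pass the filter in that fit. Over the 10 classes their medians ran from 8.68 to 14.5 CPM for Mog, 8.32 to 20.9 for Opalin and 2.76 to 17.6 for Ermn, with 0 UMIs in several of the smaller classes. In T cells, with 19, 36 and 11 cells in the libraries, the 9 genes stood at 1642, 993 and 773 CPM, of which Mbp made up 1256, 547 and 645 CPM.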

How the data were processed

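Single-cell 3′ libraries came from the v2 kit of 10x Genomics, per the labels, and the authors deposited UMI counts per gene and cell as 1 pooled matrix of 28001 features and 11625 cells. The reads were processed with Cell Ranger 3.0 (3.0.0 in the file header) on the mm10 build, per the submitters' processing notes; the annotation, the cell calling and the pooling settings are not given in the sources used here. Libraries were separated by barcode suffix, which nothing ties to the numbered samples.

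Kept cells had 300 genes or more and no more than 20% of UMIs from mitochondrial genes. The highest Scrublet scores of each library were removed (scanpy 1.11.5; 44, 296 and 28 cells, at 0.8% per 1000 cells). Classes were gated on 8 markers each (2 of the markers named are not among the features: 9630013A20Rik and Trbc2). Counts of each class were added up within a library and tested with edgeR 4.0.16 in R 4.3.3 (quasi-likelihood, robust, legacy = FALSE, TMM, filterByExpr, library as block, Benjamini-Hochberg over all genes tested). One fit compared oligodendrocytes, precursors and all outside cells, and another the 10 outside classes with at least 10 cells in every library. The library is the block because sums of 1 library come from the same cells in suspension. The standard error is the log2 difference divided by the square root of F. The scripts were tested on simulated data.

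The genes, the lists, the markers and the settings of the fit were chosen with earlier results of these data known. All 9 members are named, with up to 2 called genes per list with the largest difference from precursors; Cd9, Olig1, Olig2 and Sox10 were added after their values were seen. Some other genes are not reported here, and the lists and the search for alike genes were run without them. Alternatives were a stricter gate (3 markers), doublets kept, deeper cells, other filters, scalings and priors, DESeq2 1.42.0, no block, neurons as the outside cells and each library left out. Another kept only outside cells with no UMI of an oligodendrocyte marker.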

Additional observations from a re-analysis of the deposited data

Results flagged for a closer look

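Cells that no class took carried the 9 myelin genes well above the level of outside cells. The 359, 610 and 138 unassigned cells of libraries 1 to 3 had 5954, 3253 and 20641 CPM of the 9 genes, compared with 1012, 797 and 1433 CPM in assigned cells outside the lineage, and no comparison used them. Mbp alone stood at 3329, 1458 and 14134 CPM in them. At least 2 oligodendrocyte markers had a UMI in 57, 91 and 25 of these cells (15.9%, 14.9% and 18.1%). What these cells are was not tested.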

How the results depend on the processing

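All 9 members stayed higher in oligodendrocytes than in precursors and than outside the lineage in every alternative run. For single genes, 440 of the alternative values kept their direction and their side of the threshold, 7 lost a call and 5 changed sign. The count of members higher in precursors than outside was 0 with the stricter gate and 0 to 1 with a library left out. For Mal in precursors against outside, never called, the sign turned with the stricter gate (0.19) and with neurons as the outside cells (1.13), and with a library left out Mal reached 0.26, Ermn 0.31 and Mobp 0.21. The count of gene and class pairs above the other outside classes was 7 with doublets kept, 7 with the default prior and 11 with no filter on low counts (90 pairs tested). It was 5 and 3 of 60 pairs without library 2 and without library 3, and 8 of 90 pairs without library 1. Without outside cells of 10 or more Mbp UMIs it was 7, as a description only, since those cells were chosen by their Mbp count. The outside level was 2.14% of that in oligodendrocytes with neurons alone, 2.08% without those cells, and 2.70% to 3.44% with a library left out. The Mbp share was 18.6 percentage points higher outside without those cells, and 23.0 to 29.6 with a library left out.

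Leaving out the library as replicate block kept the counts of 9, 9, 1 and 4 calls. Leaving out TMM scaling moved the median of all genes by -0.85 (oligodendrocytes against precursors), -0.61 (against outside cells) and 0.25 (precursors against outside).

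Precursors limit the precision: 14, 50 and 31 cells, in which 1 UMI is worth 90.7, 14.1 and 9.49 CPM.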
